A study of Mus musculus with 6 samples.

Results

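The clustered protocadherins of the mouse were measured by total RNA sequencing of retina in 2 inbred strains. They were taken as every row of the count table whose symbol names an alpha, beta or gamma cluster gene by its number or as an alpha or gamma C-type gene. This rule uses names only and found 56 genes among 30510 features: 13 of the alpha cluster, 22 of the beta cluster and 21 of the gamma cluster. All 56 passed the filter on low counts, and no symbol needed a transcript suffix removed. Pcdha10 and Pcdhgc4 were not analysed here. The strains were C57BL/6J (B6), the strain behind the mouse reference genome, and DBA/2J (D2), which carries coat colour and glaucoma variants, both labelled wild type and aged 60 to 100 days. Each strain had 3 libraries of a stranded total RNA kit, made from whole retina with an RNA integrity number of 9.1 to 9.5, and the comparison asks which retinal transcripts differ between the strains.

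Clustered protocadherins are cell-surface proteins of the cadherin superfamily. In the alpha and gamma clusters each gene is a large variable exon with its own promoter, which encodes the extracellular cadherin repeats, the membrane span and part of the cytoplasmic tail. That exon is spliced to the constant exons of its cluster, which encode a cytoplasmic end common to all members. Beta genes are single exons and have no constant part. A neuron uses a small and largely random choice of variable promoters, helped by CTCF and cohesin, while the C-type genes at the end of the alpha and gamma clusters are used more evenly. Branches of one cell that carry the same set recognise and repel each other, and in the mouse retina the gamma genes are known for this self-avoidance in starburst amacrine cells and for the survival of interneurons.

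In the annotation used (GENCODE M21, build mm10) all 3 clusters lay on the plus strand of chromosome 18, the alpha genes from 36930184 to 37187661, the beta genes from 37264938 to 37524479 and the gamma genes from 37661793 to 37841873. The alpha constant exons held 59, 89 and 2712 bases, at 37156155-37156213, 37159265-37159353 and 37184946-37187657. The gamma constant exons held 59, 89 and 1968 bases, at 37825021-37825079, 37833265-37833353 and 37839903-37841870. These 2860 and 2116 bases belong to every alpha or gamma gene, whereas beta genes held none. A read from a constant exon therefore cannot be given to 1 member. Of the 31-base words of a beta gene, 0 to 22.5% were present in another member, the most in Pcdhb12. Over all annotated transcripts, on either strand, 66.9% of the words of Pcdhb12 were also present in another gene. Among alpha and gamma genes, with constant exons included, this share reached 92.2% in Pcdha4 and 99.4% in Pcdhga10. It was 74.6% in Pcdha7, 73.6% in Pcdha6, 73.3% in Pcdhga11, 66.2% in Pcdhgc3 and 65.4% in Pcdhgb7. Pcdhb21 and Pcdhb22 overlap by 455 bases on the same strand. The symbol Pcdha11 stands for 2 genes in this annotation, so the row Pcdha11 may hold either.

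The spread of levels between genes differed among the 3 clusters, and whether the constant exons account for this was not tested. Over the 13 alpha genes the mean level ran only from 49.5 to 62.0 CPM (counts relative to library size, scaled between libraries) in B6 and from 48.4 to 59.2 CPM in D2, so that the highest gene stood 1.25 and 1.22 times above the lowest. The 22 beta genes ran from 0.756 to 33.0 CPM in B6 and from 0.763 to 34.7 CPM in D2, a ratio of 43.6 and 45.5. The gamma genes other than Pcdhgb8 ran from 109 to 149 CPM in B6 and from 100.1 to 138 CPM in D2, a ratio of 1.36 and 1.38. Pcdhgb8, a pseudogene in the annotation, was at 27.5 ± 0.232 CPM in B6 against 27.9 ± 0.923 CPM in D2 (SD, n = 3). In GENCODE it holds all 2116 constant bases, as the other gamma genes do. Its gene model in RefSeq ends at 37840489, inside the last constant exon, where the other gamma genes end at or near 37841873. Why its level lay below theirs was not tested.

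**Figure D1:**
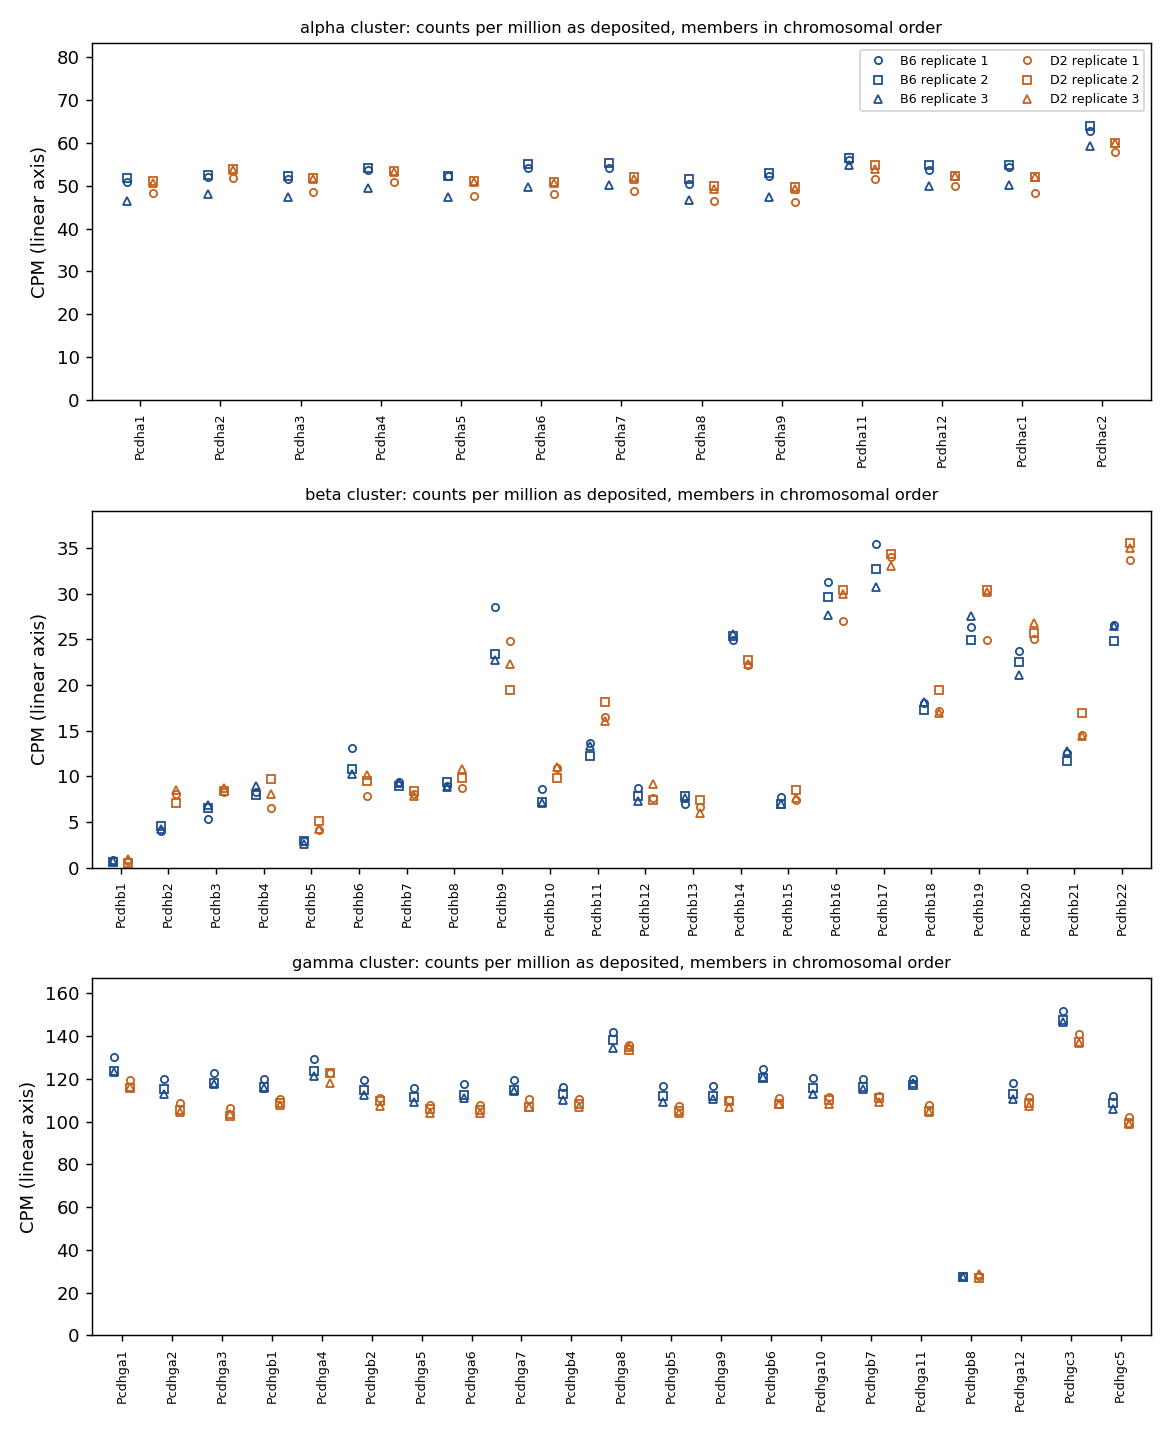
Level of each clustered protocadherin (CPM, linear axis from 0) in the 3 B6 libraries (blue) and 3 D2 libraries (orange), 1 panel per cluster, genes in chromosomal order. Alpha and gamma genes sit in narrow bands apart from Pcdhgb8 at 27.5 and 27.9 CPM, whereas beta genes spread from under 1 CPM to 35.5 CPM.

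Beta cluster genes hold no constant exons in the annotation, and they differed between the strains gene by gene. Pcdhb2, Pcdhb3, Pcdhb5, Pcdhb10, Pcdhb11, Pcdhb20, Pcdhb21 and Pcdhb22 were higher in D2, and Pcdhb6 and Pcdhb14 were lower. These 10 of 22 genes (45.5%) passed an adjusted p of 0.05 (edgeR's quasi-likelihood test, Benjamini-Hochberg adjustment over all 18588 tested genes), of which 29.7% passed, 14.5% higher and 15.3% lower in D2. The median log2 fold change, D2 minus B6, was 0.07 over the beta genes and 0.00 over all tested genes. In 11 beta genes the libraries of the strains did not overlap, against 42.3% of all tested genes. Whether each library stands for its own mouse is not stated in the labels. The p-values thus refer to the spread among these libraries, which may be technical.

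Pcdhb2 showed the greatest difference of the family in the deposited counts. Its level was 4.0, 4.58 and 4.28 CPM in B6 and 8.08, 7.13 and 8.49 CPM in D2. Every D2 library lay above every B6 library. The mean went from 4.28 ± 0.288 to 7.90 ± 0.695 CPM (SD, n = 3), 1.84-fold higher in D2 (log2 fold change 0.88 ± 0.10 SE, adjusted p = 8.84e-06 by edgeR's quasi-likelihood test). Pcdhb2 lies at 37294812-37297624, near the alpha-facing end of the beta cluster, and its own 2813-base exon shares 7.90% of its words with other members.

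Pcdhb5 was among the least abundant members, at 2.96, 2.96 and 2.60 CPM in B6 and 4.20, 5.14 and 4.26 CPM in D2. The groups did not overlap, and D2 was 1.59-fold higher (log2 fold change 0.67 ± 0.13, edgeR adjusted p = 0.000822). Pcdhb3, the neighbour of Pcdhb2, was at 5.32, 6.53 and 6.85 CPM in B6 and 8.29, 8.40 and 8.72 CPM in D2. Its D2 libraries were also all higher, with a log2 fold change of 0.45 ± 0.10 (adjusted p = 0.00288). Pcdhb4, which lies between Pcdhb3 and Pcdhb5, did not pass, at 8.42 ± 0.479 CPM in B6 against 8.14 ± 1.60 CPM in D2.

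In the middle of the cluster Pcdhb10 and Pcdhb11, which follow each other on the chromosome, were both higher in D2. Pcdhb10 was at 8.60, 7.20 and 7.04 CPM in B6 and 10.9, 9.87 and 11.1 CPM in D2 (a log2 fold change of 0.47 ± 0.09). Pcdhb11 was at 13.6, 12.2 and 13.4 CPM in B6 and 16.5, 18.1 and 16.1 CPM in D2 (a log2 fold change of 0.37 ± 0.07). For both genes the lowest D2 library lay above the highest B6 library. Pcdhb12, the next gene, was at 7.99 ± 0.682 and 8.08 ± 0.913 CPM and did not pass, and how far its counts depend on the words it shares with other genes was not tested.

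The last 3 genes of the cluster, Pcdhb20, Pcdhb21 and Pcdhb22, were higher in D2. Pcdhb22 was at 26.6, 24.8 and 26.5 CPM in B6 and 33.7, 35.5 and 34.9 CPM in D2, with little spread within a strain. It was 1.34-fold higher in D2, with the lowest adjusted p of the family (log2 fold change 0.42 ± 0.05, adjusted p = 6.26e-06). Pcdhb21 was at 12.6, 11.7 and 12.7 CPM in B6 and 14.5, 16.9 and 14.4 CPM in D2 (a log2 fold change of 0.31 ± 0.07). In GENCODE it shares bases with Pcdhb22, so that its call may not be wholly separate from that of Pcdhb22. The RefSeq models of these genes do not overlap, and which annotation was counted is not stated. Pcdhb20 was at 23.8, 22.5 and 21.1 CPM in B6 and 25.0, 25.7 and 26.8 CPM in D2, a log2 fold change of 0.20 ± 0.05. Pcdhb20 passed with an adjusted p of 0.0113, and did not pass without D2 replicate 3 (adjusted p = 0.062, edgeR).

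Of the beta genes, 2 were called lower in D2. Pcdhb14 was at 24.9, 25.4 and 25.5 CPM in B6 and 22.2, 22.8 and 22.3 CPM in D2, so that the groups did not overlap although the log2 fold change was only -0.17 ± 0.05 (adjusted p = 0.0102, edgeR). Pcdhb6 was at 13.1, 10.8 and 10.3 CPM in B6 and 7.84, 9.47 and 10.2 CPM in D2. Its highest D2 library came close to its lowest B6 library, and the log2 fold change was -0.31 ± 0.11 (adjusted p = 0.0361). Pcdhb6 did not pass without B6 replicate 1 (0.186), D2 replicate 1 (0.150) or D2 replicate 2 (0.0672), which leaves 1 gene lower in D2 instead of 2. Over all 13 other settings Pcdhb6 lost its call in 4. The other 8 genes that were called higher or lower, without Pcdhb6 and Pcdhb20, passed here and in all 13 other settings tried.

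**Figure D2:**
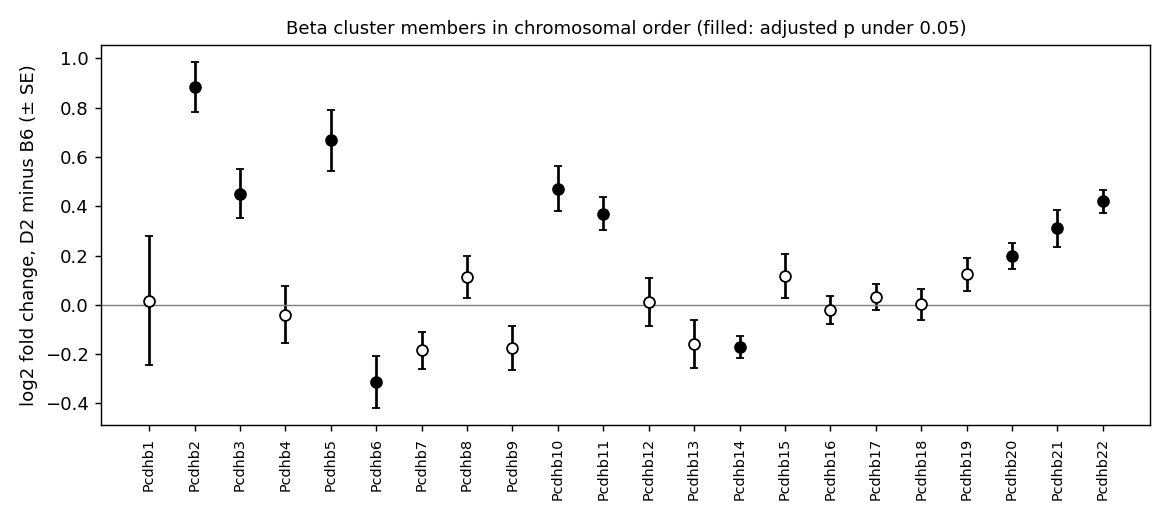
Log2 fold change, D2 minus B6, of the 22 beta genes in chromosomal order, with standard errors of the fit; filled circles passed an adjusted p of 0.05. Values run from -0.31 (Pcdhb6) to 0.88 (Pcdhb2), with 8 genes called higher and 2 lower.

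The remaining 12 beta genes did not pass, with log2 fold changes from -0.18 to 0.12. Pcdhb7 had groups that did not overlap, at 9.43, 9.01 and 9.29 CPM in B6 and 8.11, 8.40 and 7.91 CPM in D2, and an adjusted p of 0.0821 (edgeR). Pcdhb17, the most abundant beta gene in B6 by counts, was at 35.4, 32.7 and 30.7 CPM in B6 and 34.0, 34.4 and 33.0 CPM in D2, and the strains overlapped. Pcdhb16, whose protein has been described at synapses of the retina, was at 29.5 ± 1.79 and 29.1 ± 1.85 CPM (log2 fold change -0.02 ± 0.06). Pcdhb1, the first gene of the cluster, was the rarest, at 0.554 to 1.01 CPM over the 6 libraries. Its counts ran from 18 in D2 replicate 2 to 37 in B6 replicate 1.

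Summed over the 22 beta genes, the level was 326, 307 and 307 CPM in B6 and 325, 345 and 340.2 CPM in D2, given without a test because the members were chosen as a family. The lowest D2 library lay below the highest B6 library. Within this sum Pcdhb22 took 8.30 ± 0.297% in B6 and 10.3 ± 0.0476% in D2, and Pcdhb2 took 1.37 ± 0.135% and 2.35 ± 0.243%. Pcdhb14 took 8.09 ± 0.384% and 6.67 ± 0.151% (SD, n = 3). By counts Pcdhb17 was first in B6 and Pcdhb22 in D2.

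Levels between beta genes can be compared per kilobase, and the order depended on the gene model. Over the exon lengths of GENCODE the first 3 genes in both strains were Pcdhb9, Pcdhb17 and Pcdhb20, at 8.15 ± 1.04, 7.07 ± 0.514 and 6.31 ± 0.376 CPM per kilobase in B6. In D2 these 3 genes stood at 7.26 ± 0.882, 7.25 ± 0.151 and 7.25 ± 0.250 CPM per kilobase, so that they did not differ beyond their spread. RefSeq gives spans of 3.27 kilobases for Pcdhb17 and 3.07 for Pcdhb22, where GENCODE gives 4.66 and 6.61. Over the RefSeq spans Pcdhb17 was first in B6 at 10.1 CPM per kilobase and Pcdhb22 was first in D2 at 11.3 CPM per kilobase. Pcdhb1 and Pcdhb5 were the lowest with both models, Pcdhb1 at 0.292 ± 0.0355 and 0.295 ± 0.0884 and Pcdhb5 at 0.804 ± 0.0582 and 1.28 ± 0.149 CPM per GENCODE kilobase in B6 and D2. Pcdhb2 moved from rank 20 in B6 to rank 11 in D2 by GENCODE length.

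None of the 13 alpha genes passed as deposited, where 29.7% of all tested genes did, and their log2 fold changes ran from -0.09 (Pcdha6) to 0.06 (Pcdha2). By edgeR's quasi-likelihood test 0 of 13 had even an unadjusted p under 0.05, DESeq2 and limma-voom also called 0, and 0 had groups that did not overlap (42.3% of all tested genes). Pcdhac2, a C-type gene known from mice for the spacing of serotonergic axons, was the most abundant alpha row at 62.8, 63.9 and 59.2 CPM in B6 and 57.8, 59.9 and 59.8 CPM in D2. Its strains overlapped (log2 fold change -0.07 ± 0.04, edgeR adjusted p = 0.239). The other C-type gene of the cluster, Pcdhac1, was at 53.0 ± 2.55 and 50.7 ± 2.12 CPM, Pcdha11 at 55.7 ± 0.937 and 53.4 ± 1.68 CPM, and Pcdha4 at 52.4 ± 2.47 and 52.5 ± 1.41 CPM. Without B6 replicate 3, Pcdha6 alone passed (log2 fold change -0.13, adjusted p = 0.0394).

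Gamma rows were lower in D2 as a block. Of 21 genes, 20 had a negative log2 fold change, 10 passed as lower in D2 (47.6%; 15.3% of all tested genes were called lower) and 0 passed as higher, with 0 higher at an unadjusted p under 0.05 and 0 by DESeq2 or limma-voom. The 10 were Pcdhga1, Pcdhga2, Pcdhga3, Pcdhga6, Pcdhga7, Pcdhga11, Pcdhgb1, Pcdhgb6, Pcdhgc3 and Pcdhgc5. In 16 gamma genes the groups did not overlap, against 42.3% of all tested genes. Because rows of this cluster hold the same constant exons, the 10 calls are not 10 separate differences. Their number was 3 without B6 replicate 1, 5 without D2 replicate 1, 4 without D2 replicate 2 and 3 without D2 replicate 3, while Pcdhga3, Pcdhga11 and Pcdhgb6 passed here and in all 13 other settings tried.

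The 2 gamma C-type genes in the table bracketed the cluster. Pcdhgc3, a C-type gene whose protein is known to bind Axin1 and dampen Wnt signalling, was the highest row at 152, 148 and 147 CPM in B6 and 141, 137 and 137 CPM in D2 (a log2 fold change of -0.10 ± 0.03, edgeR adjusted p = 0.0293). Pcdhgc5 was the lowest row other than Pcdhgb8, at 112, 109 and 106 CPM in B6 and 102, 99.2 and 99.0 CPM in D2 (a log2 fold change of -0.12 ± 0.04 with adjusted p = 0.0162). The libraries of the strains did not overlap for either gene, and the differences were about the size of the cluster median of -0.10. Pcdhgc3 kept its call without B6 replicate 3 but lost it without any other single library (adjusted p up to 0.106). Over all 13 other settings Pcdhgc3 lost its call in 6. Pcdhgc5 lost its call without B6 replicate 1 (0.0769), D2 replicate 2 (0.0519) or D2 replicate 3 (0.0646).

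3 gamma genes stood out from that common shift as deposited. Pcdhga3 was at 123, 118 and 117 CPM in B6 and 106, 103 and 103 CPM in D2, the greatest difference in the cluster (log2 fold change -0.20 ± 0.03, edgeR adjusted p = 0.000471). Pcdhga11 was at 119 ± 1.46 and 106 ± 1.86 CPM (log2 fold change -0.16 ± 0.03, adjusted p = 0.0015), and Pcdhgb6 at 122 ± 2.41 and 109 ± 1.70 CPM (log2 fold change -0.16 ± 0.03, adjusted p = 0.00196). At the other end Pcdhga8 was at 138 ± 3.74 and 135 ± 1.09 CPM and Pcdhga4 at 125 ± 4.09 and 121 ± 2.72 CPM, and neither passed.

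How much of an alpha or gamma count could be the gene's own was asked from the counts themselves. In each library the lowest alpha gene held 93.6% to 95.8% of the median alpha count and 78.4% to 83.0% of the highest. The lowest gamma gene held 91.5% to 94.4% of the median and 72.2% to 73.9% of the highest, Pcdhgb8 left out. The lowest gamma gene was Pcdhgc5 in every library, and the lowest alpha gene was Pcdha8, Pcdha1 or Pcdha9. If that lowest count is taken as the reads of the constant exons, the reads above it can be set against it. Each gene's reads above it were divided by its own variable exon length and summed over the alpha genes. The sum was 0.769 to 1.03 times the density of the lowest count over the constant exons. For gamma this ratio was 1.41 to 1.67 in the B6 libraries and 1.77 to 1.93 in the D2 libraries, without overlap. Why it differed between the strains was not tested. Neither the read counter nor its settings are stated in the labels or file headers, and whether a constant-exon read was counted for every member was not tested.

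Reads above the lowest member of the same library, called own reads below, were therefore compared as an alternative added after the data had been seen. Despite the name, own reads may include reads from words shared with other genes, which was not tested. If each row holds the same shared reads, they are a lower limit to a gene's own reads, since the lowest member may have some of its own, and the noise of the lowest member enters every difference. A difference between members of 1 library would then contain no shared reads, whatever the lowest member holds. By own reads, 10 of 19 gamma genes were higher in D2 and 3 lower (edgeR adjusted p under 0.05; 14.5% and 15.3% of all tested genes were called higher and lower in that fit). The lowest count taken off, that of Pcdhgc5, was itself lower in D2, at 109 ± 3.24 and 100.4 ± 1.81 CPM in that fit. Its log2 fold change was -0.12 ± 0.04 (edgeR adjusted p = 0.0159). As deposited, the 10 genes called higher all had a negative log2 fold change. A call of higher by own reads thus means that these 10 genes fell less than Pcdhgc5 in CPM, not that their rows rose. In 13 of the 19 the groups did not overlap, where 42.3% of all tested genes did not in the deposited counts. When only 80% of the lowest count was taken off, 2 were higher and 4 lower, and 14 of 19 kept their sign.

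Pcdhga3 had 10.6, 9.42 and 11.6 CPM of own reads in B6 and 4.27, 3.67 and 4.47 CPM in D2. The strains were far apart, 2.54-fold lower in D2 (log2 fold change -1.34 ± 0.11, edgeR adjusted p = 1.56e-07), where the deposited row gave -0.20. Pcdhga11 had 7.95, 8.50 and 12.5 CPM in B6 and 5.80, 5.76 and 5.65 CPM in D2 (a log2 fold change of -0.74 ± 0.14), and Pcdhgb6 had 13.2 ± 1.61 and 9.16 ± 0.188 CPM (log2 fold change -0.52 ± 0.09). All 3 also passed as lower with 80% taken off, at -0.42, -0.29 and -0.26, as did Pcdhga2 at -0.15.

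In the opposite direction, Pcdhga9 had 4.59, 3.19 and 5.03 CPM of own reads in B6 and 8.17, 10.5 and 8.02 CPM in D2. Pcdhgb4 had 3.83, 4.13 and 4.45 CPM in B6 and 8.58, 8.97 and 7.67 CPM in D2. Neither pair of groups overlapped, and the log2 fold changes were 1.07 ± 0.15 and 1.03 ± 0.10 (edgeR adjusted p = 5.63e-05 and 1.69e-06). These 2 genes were the ones called higher with 80% taken off, at 0.15 and 0.13. Pcdhga12 (0.87 ± 0.12), Pcdhga5 (0.87 ± 0.14), Pcdhgb5 (0.55 ± 0.13), Pcdhga10 (0.44 ± 0.09), Pcdhgb2 (0.43 ± 0.10), Pcdhgb7 (0.38 ± 0.10), Pcdhga4 (0.37 ± 0.08) and Pcdhga8 (0.24 ± 0.04) passed as higher by own reads and did not pass with 80% taken off. In the annotation Pcdhga4 has 3157 bases in common with another member, of which 2116 are constant, and 65.6% of its words occur in its neighbour Pcdhgb1. The reads of Pcdhga4 above the lowest member are therefore not wholly its own, nor are those of Pcdhgb1 (8.25 ± 1.34 and 8.93 ± 0.676 CPM, not passed).

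**Figure D3:**
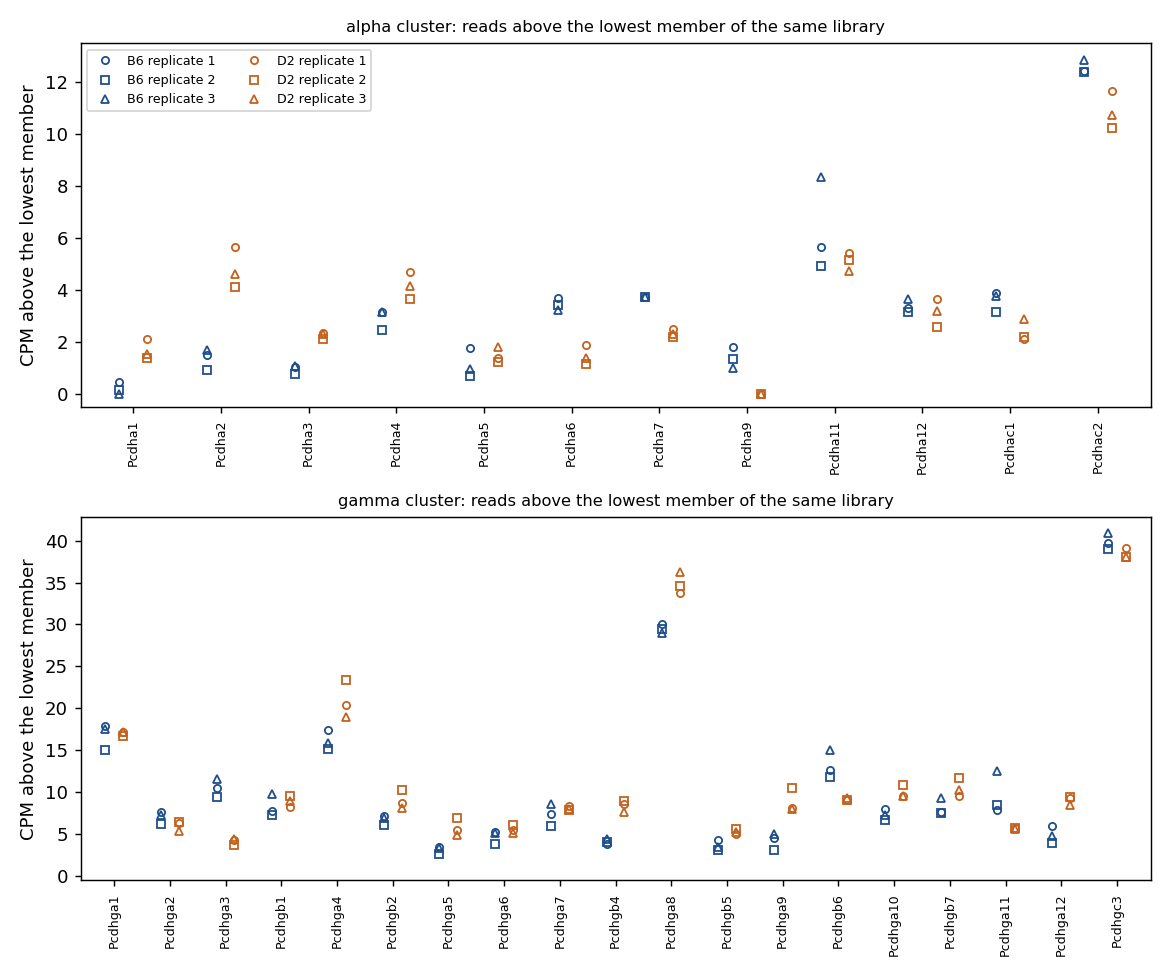
Reads above the lowest member of the same library (CPM, linear axis), for 12 alpha genes and 19 gamma genes in the 3 B6 (blue) and 3 D2 (orange) libraries; Pcdha8, Pcdhgc5 and Pcdhgb8 are not drawn. Pcdhgc3, Pcdhga8, Pcdhga4 and Pcdhga1 lead the gamma cluster and Pcdhac2 leads the alpha cluster in both strains, and Pcdha9 is at 0 in D2 because it is the lowest member there.

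Own reads also gave an order within the gamma cluster, under the untested assumption that each row holds the same shared reads. Pcdhgc3 led at 39.8 ± 0.971 CPM in B6 against 38.4 ± 0.592 CPM in D2, followed by Pcdhga8 at 29.5 ± 0.528 and 34.8 ± 1.28 CPM. Pcdhga4 had 16.1 ± 1.14 and 20.9 ± 2.28 CPM, and Pcdhga1 16.8 ± 1.55 and 17.0 ± 0.264 CPM, so that these neighbours in the order overlapped in B6 but not in D2. Per kilobase of variable exon Pcdhgc3 was at 15.5 ± 0.378 and 14.9 ± 0.230 CPM and Pcdhga8 at 11.3 ± 0.202 and 13.3 ± 0.489 CPM. The other 15 genes had 3.15 to 13.2 CPM of own reads in B6 and 4.14 to 10.5 CPM in D2.

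The direct differences between genes of 1 library, for pairs chosen after their values were seen and given without a test, changed between the strains. Pcdhga9 minus Pcdhga3 was -6.25 ± 0.326 CPM in B6 against 4.75 ± 1.81 CPM in D2 (SD, n = 3). Pcdhgb4 minus Pcdhgb6 was -9.03 ± 1.40 CPM in B6 and -0.75 ± 0.843 CPM in D2. Pcdhga12 minus Pcdhga11 was -4.73 ± 2.88 CPM in B6 against 3.31 ± 0.456 CPM in D2. In each of these pairs the 3 B6 values lay below the 3 D2 values, and 2 of the 3 pairs changed their order.

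**Figure D4:**
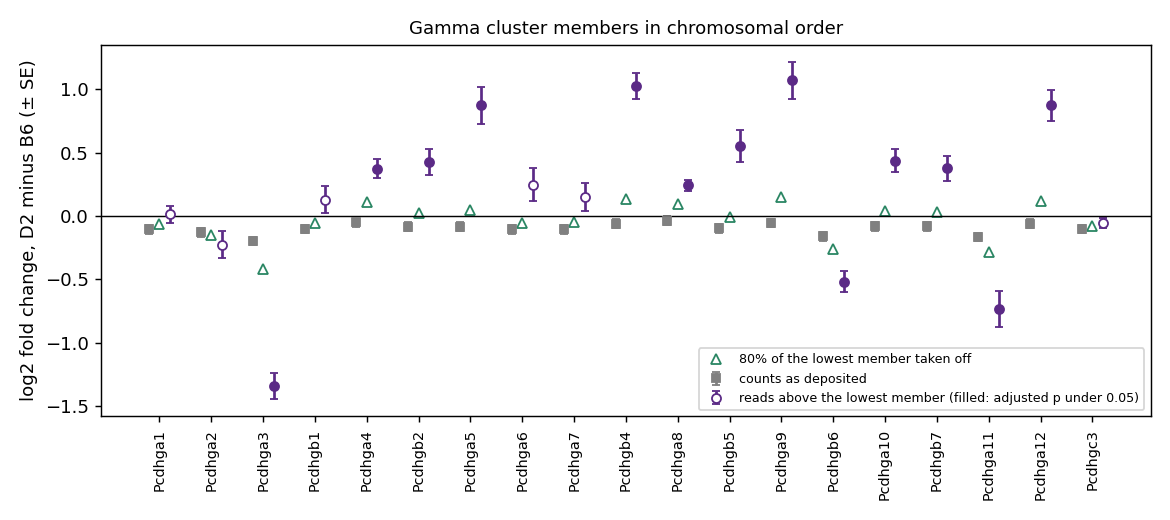
Log2 fold change, D2 minus B6, of 19 gamma genes in chromosomal order: counts as deposited (grey squares, with SE), after 80% of the lowest member was taken off (green triangles) and for reads above the lowest member (purple circles with SE, filled where the adjusted p was under 0.05). Deposited values lie between -0.20 and -0.04, whereas own reads spread from -1.34 (Pcdhga3) to 1.07 (Pcdhga9).

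In the alpha cluster own reads were few. Of 12 genes tested, Pcdha1, Pcdha2, Pcdha3 and Pcdha4 were called higher in D2, and Pcdha6, Pcdha7, Pcdhac1 and Pcdhac2 were called lower. Pcdha1 was itself the lowest member in B6 replicate 3 and is 0 there by construction. Pcdha2 had 1.48, 0.894 and 1.68 CPM in B6 and 5.63, 4.10 and 4.61 CPM in D2. Pcdha6 had 3.69, 3.41 and 3.22 CPM in B6 and 1.88, 1.14 and 1.38 CPM in D2. The strains did not overlap for either gene, with log2 fold changes of 1.84 ± 0.19 and -1.24 ± 0.17 (edgeR adjusted p = 3.6e-06 and 5.12e-05). Pcdha2 minus Pcdha6 was -2.08 ± 0.491 CPM in the B6 libraries and 3.31 ± 0.403 CPM in the D2 libraries. This pair too was chosen after its values were seen, and its difference repeats the own reads of the 2 genes.

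With 80% of the lowest alpha count taken off, Pcdha2 passed as higher and Pcdha6, Pcdha7 and Pcdha9 as lower. Pcdha7 had 3.71 ± 0.00601 CPM of own reads in B6 and 2.33 ± 0.158 CPM in D2 (a log2 fold change of -0.67 ± 0.12). Pcdha9 had 1.79, 1.33 and 0.999 CPM in B6 and was itself the lowest member in every D2 library, where its own reads are 0 by construction, so that neither a fold nor its call by own reads is given. Pcdhac2 had the most own reads of the cluster, 12.5 ± 0.251 CPM in B6 against 10.8 ± 0.731 CPM in D2, and its call (log2 fold change -0.21 ± 0.07, edgeR adjusted p = 0.0334) did not pass with 80% taken off (0.0525). Pcdha5, Pcdha11 and Pcdha12 did not pass by own reads.

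Lists of related genes were counted in the same fit. Of 12 non-clustered protocadherins, single genes outside the 3 clusters, 1 was higher and 4 were lower in D2 (list median of the log2 fold changes -0.11), where 14.5% of all tested genes were higher and 15.3% lower. Pcdh20, a nervous system protocadherin, was at 14.4, 13.9 and 13.4 CPM in B6 and 6.55, 7.10 and 7.86 CPM in D2. The 2 strains were wide apart, and Pcdh20 was 1.93-fold lower in D2 (log2 fold change -0.95 ± 0.08, edgeR adjusted p = 2.4e-07), a greater difference than that of any clustered member as deposited. Pcdh9 was at 129 ± 3.30 and 103 ± 2.46 CPM (-0.33 ± 0.04), Pcdh11x at 18.8 ± 1.84 and 16.5 ± 0.328 CPM (-0.19 ± 0.07) and Pcdh17 at 37.7 ± 1.48 and 34.3 ± 0.499 CPM (-0.14 ± 0.04). Pcdh18 was higher in D2, at 18.2 ± 1.95 and 23.9 ± 0.650 CPM (0.40 ± 0.07). Pcdh15, a component of hair-cell tip links that is also found at photoreceptors, was the most abundant at 209.9 ± 16.1 and 193 ± 13.4 CPM and did not pass. Pcdh17 lost its call in 6 of the 13 other settings, among them without B6 replicate 1 or any 1 of the D2 libraries (adjusted p 0.0639 to 0.128). Pcdh15 gained a call without B6 replicate 1 (0.0307) or D2 replicate 2 (0.0261).

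Of 17 regulators of promoter choice and chromatin at the clusters, 2 were higher and 2 lower (all tested genes: 14.5% and 15.3%), and the list median of the log2 fold changes was 0.04. Trim28, a corepressor that works with the histone methyltransferase Setdb1, was at 128 ± 3.67 CPM in B6 against 144 ± 2.06 CPM in D2 (0.17 ± 0.03). The cohesin release factor Wapl was at 414 ± 19.2 and 371 ± 5.80 CPM (-0.16 ± 0.04), and the cohesin subunits Smc1a and Stag2 had log2 fold changes of 0.10 ± 0.04 and -0.11 ± 0.04. Ctcf, the insulator protein that binds the variable promoters, was at 97.4 ± 2.88 and 99.99 ± 1.46 CPM (0.04 ± 0.04, edgeR adjusted p = 0.475), and Smchd1, a repressor of the clusters, at 0.08 ± 0.04 on the log2 scale; neither passed. Smc1a lost its call when any 1 library other than D2 replicate 3 was left out (adjusted p up to 0.200), and Stag2 when any 1 other than B6 replicate 2 was (up to 0.141). Over all 13 other settings Smc1a lost its call in 8 and Stag2 in 6.

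Of 21 cytoplasmic partners and proteases, 2 were higher and 6 lower in D2, beside 14.5% and 15.3% of all tested genes (list median of the log2 fold changes -0.07). Nlgn2, the neuroligin of inhibitory synapses, was at 76.2, 79.1 and 79.9 CPM in B6 and 66.7, 64.2 and 62.9 CPM in D2, with no overlap (-0.28 ± 0.04, edgeR adjusted p = 4.5e-05). The gamma-secretase subunits went opposite ways: Ncstn was lower (37.5 ± 1.14 and 33.1 ± 0.893 CPM) and Psen2 higher in D2 (17.7 ± 1.04 and 22 ± 2.12 CPM). The small GTPase Rac1 was lower, at 94.5 ± 2.84 and 85.7 ± 0.534 CPM. Cyfip2, Nlgn1 and Ptk2b were also lower and Ret was higher. Ptk2b, a kinase that binds the constant domains, was at a low level and just passed (-0.44 ± 0.16, adjusted p = 0.049).

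Of 18 tested neighbours of the 3 clusters, 1 was higher (Zmat2, 0.13 ± 0.04) and 1 lower (Wdr55, -0.25 ± 0.07), both on the side of the alpha cluster, beside 14.5% and 15.3% of all tested genes, and the median log2 fold change was 0.01. Taf7, a transcription factor subunit encoded between the beta and gamma clusters, was at 45.6 ± 0.545 and 45.1 ± 2.24 CPM. Diaph1, beyond the gamma cluster, was at 38.3 ± 0.295 and 36.2 ± 1.08 CPM, and neither passed. Zmat2 did not pass when the library left out was B6 replicate 2 (adjusted p = 0.0636), B6 replicate 3 (0.0681), D2 replicate 1 (0.0519) or D2 replicate 3 (0.0916), and Wdr55 without B6 replicate 3 (0.0561) or D2 replicate 2 (0.0935).

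**Figure D5:**
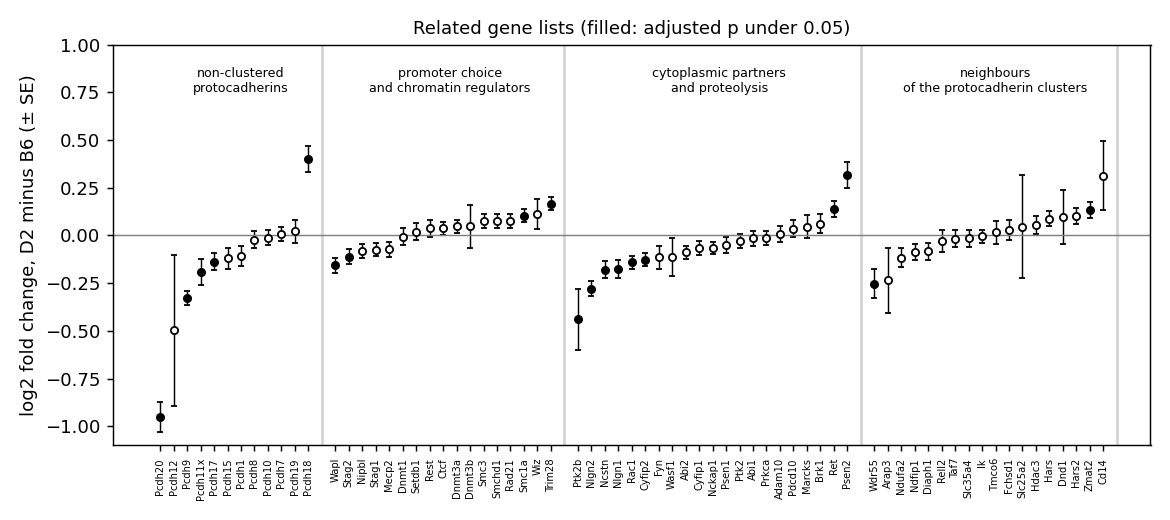
Log2 fold change, D2 minus B6, with standard errors, of 12 non-clustered protocadherins, 17 regulators, 21 partners and 18 neighbours, sorted within each list; filled circles passed an adjusted p of 0.05. Pcdh20 lies at -0.95 and Pcdh18 at 0.40, while regulators and neighbours that passed lie between -0.25 and 0.17.

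In the authors' deposited table, 12 of 22 beta genes had a false discovery rate under 0.05 (8 higher and 4 lower in D2), with 15 of 21 gamma genes, all lower, and 1 of 13 alpha genes, against 40.9% of its 18100 genes. The authors' deposited table marked 2 of the 56 genes as differentially expressed, Pcdhb2 and Pcdhb5, against 9.2% of all its genes. The 2 beta genes with a false discovery rate under 0.05 in the authors' deposited table that did not pass here were Pcdhb7 and Pcdhb9. Pcdhb9 was at 28.6, 23.4 and 22.7 CPM in B6 and 24.8, 19.4 and 22.3 CPM in D2, and the strains overlapped.

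The libraries held 29417002 to 43719666 counts, at which 3 counts stand for 0.0686 to 0.102 CPM. No marker list had a gene at 0 in all libraries. The counts of markers that follow stand beside 14.5% higher and 15.3% lower over all tested genes. Rod markers (1 of 8 higher and 1 lower) summed to 55887 to 57528 CPM in B6 and 52488 to 55561 CPM in D2. Of 7 cone markers 6 were lower in D2, with sums of 1372 to 1394 CPM and 1030.2 to 1122 CPM. Ganglion cell markers (6 of 9 lower and 1 higher) summed to 831 to 977 CPM in B6 and 702 to 743 CPM in D2, and starburst amacrine markers (1 of 6 lower) to 166 to 180 CPM and 158 to 162 CPM. General amacrine markers (1 of 7 higher and 1 lower) summed to 870.0 to 898 CPM in B6 and 900.4 to 931 CPM in D2. Horizontal cell markers (1 of 6 higher and 3 lower) summed to 256 to 258 CPM and 269 to 285 CPM. Bipolar cells (2 of 8 markers higher and 1 lower) overlapped in their sums. Of 7 Mueller glia markers 3 were lower (5026 to 5450.1 CPM and 4469 to 4861 CPM), as were 4 of 6 microglia markers (19.9 to 22.4 CPM and 12.8 to 15.9 CPM). Of markers from outside the neural retina, 4 of 5 erythrocyte genes were higher in D2 (71.6 to 111 CPM and 127 to 260 CPM in sum), 1 of 5 tested lens genes was lower and 0 of 6 pigment epithelium genes passed. The part of these differences in the protocadherin results was not tested, and in bulk tissue fewer cells of a type and less RNA per cell cannot be told apart. Both strains were mapped to a build derived from B6, RNA was isolated in batches that the labels do not assign to libraries, and neither effect was tested.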

How the data were processed

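Raw counts per gene symbol, not normalized, were deposited by the authors for 6 retina libraries, 3 of each strain; per the submitters' processing notes FastQC, STAR, SAMtools, edgeR and the build mm10 were used. No version, read counter, annotation or strand setting is given in the sources used here. A table was also deposited by the authors, with scaled expression scores and the false discovery rate (p-value after adjustment) of their strain comparison. Counts were filtered with filterByExpr, scaled with TMM factors and tested with edgeR 4.0.16 (R 4.3.3; quasi-likelihood, strain only, Benjamini-Hochberg over 18588 genes; coefficient of variation 4.40%), after the test had been checked on simulated data. Genes were matched to GENCODE M21. Alternatives were other scalings (DESeq2 1.42.0 size factors, upper quartile), the DESeq2 Wald test, limma-voom (3.58.1), 2 filters, a replicate block and each library left out; subtraction of the lowest member was added after seeing the data. Named genes were C-type genes, up to 10 called and the 3 most abundant genes per cluster, and up to 4 called genes and the most abundant gene per related list; other genes were named after their values were seen. The members and lists were chosen with earlier results of these data known.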

Additional observations from a re-analysis of the deposited data

How the results depend on the processing

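The counts of called beta genes higher in D2 stayed between 7 and 9 over the libraries left out and at 8 under the other 7 settings; the calls of alpha genes higher and of gamma genes higher stayed at 0 under all 13 settings. Leaving out 1 library in turn gave 0 to 1 alpha genes lower in D2, 1 to 2 beta genes lower and 3 to 11 gamma genes lower. With the lowest member of the cluster taken off, an alternative added after seeing the data, alpha genes were 4 higher and 5 lower (1 of these, Pcdha9, is 0 in D2 by construction) and gamma genes 10 higher and 3 lower; with 80% of it taken off, alpha genes were 1 higher and 3 lower and gamma genes 2 higher and 4 lower. These subtractions change the values by construction, and whether the reads taken off are all common to the cluster was not tested. As a replicate block the replicate number left 1 beta gene and 5 gamma genes lower in D2; the cause was not tested. Deviations of same-numbered libraries of the strains had correlations of 0.135, 0.0657 and -0.0296 over genes, and not every library correlated best with its own number. Whether same-numbered libraries share a batch is not stated in the labels, and these correlations cannot decide it. Of 45 named genes, 25 kept direction and call under all 13 settings, 14 lost the call in at least 1, 2 gained it and 4 changed sign without ever passing. Pcdha4 changed sign with DESeq2 size factors (-0.00081), upper quartile factors (-0.0013) and the DESeq2 Wald test (-0.00074), and ran from -0.034 to 0.025 with 1 library left out. Under the same omissions Pcdhb16 ran from -0.062 to 0.029, Pcdhb17 from -0.013 to 0.090 and Prkca from -0.043 to 0.013. Over all genes 4502 to 5171 were called with 1 library left out. Pcdhb1 and the own reads of the alpha genes rest on few counts, which limits their precision. Constant-exon reads cannot be divided among alpha or gamma genes from these counts.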
